A study of Bos taurus with 6 samples.

Results

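The genes described here encode 2 opposed sets of enzymes of the ubiquitin system: the E2 enzymes, which carry ubiquitin to its targets, and the deubiquitinating enzymes, which take it off again. They were chosen by gene symbol, as genes whose symbol began with UBE2, USP and a digit, UCHL or OTU. Only probe sets annotated with a single symbol were used. A gene also needed a probe set with present calls on 3 or more of the study's 6 arrays. Of 62 genes with such a name, 51 met the rule: 25 UBE2, 20 USP, 3 UCHL and 3 OTU genes, of 6423 named genes tested in all. Each gene is represented by the brightest of its probe sets by mean signal, whatever its change.

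The study compared longissimus dorsi, the long muscle along the back, between bulls of 24 months and bulls of 1 month, all male and of the Chinese Red Steppe breed on a standard diet. RNA of 18 bulls, 9 per age, was mixed into 6 pools of 3 bulls each, and every pool was hybridised to 1 Affymetrix bovine array, which gave n = 3 pools per age (replicates 2, 3 and 4 at 24 months and replicates 1, 2 and 3 at 1 month). The p-values measure the spread among pools, since single bulls were not measured. Values are the intensities of the authors' deposited table on a linear scale, and changes are log2 differences of 24 months minus 1 month after 16 was added to each intensity, with the standard error (SE) of a limma fit to all 13204 probe sets with present calls on 3 or more arrays. A gene is said to have risen or fallen where its limma p, Benjamini-Hochberg adjusted over those probe sets, was under 0.05.

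Ubiquitin reaches a protein in a relay. An E1 enzyme activates it, an E2 enzyme takes it over, and a ubiquitin ligase (E3) brings the loaded E2 to the target. The E2 has a large say in which kind of chain is built: chains linked through lysine 48 of ubiquitin mark proteins for the proteasome, and chains linked through lysine 63 act mainly in signalling and DNA repair. Deubiquitinating enzymes trim or remove these chains, rescue proteins from breakdown, edit histones and recycle ubiquitin at the proteasome. In skeletal muscle this system removes much of the contractile protein during wasting and takes part in the normal turnover of fibres.

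In the muscle of 24-month bulls 9 of the 51 enzymes stood higher than at 1 month and 1 stood lower. The 9 were the deubiquitinating enzymes USP19, OTUD4, USP47, USP22, USP37, USP14 and USP15 and the E2 enzymes UBE2G1 and UBE2G2, and the 1 that fell was USP16, a histone deubiquitinase. The rises were of 0.49 to 1.38 on the log2 scale. They made up 17.6% of the 51 enzymes, against 11.3% of the 6423 named genes on their brightest probe set, and the single fall made up 1.96%, against 5.78% of named genes. At an unadjusted p under 0.05 in the limma fit the numbers were 14 higher and 2 lower. No share of named genes was taken at that looser limit. Counts at that limit, here and below, are therefore not set against the arrays at large. The median change was 0.26 over the 51 enzymes and 0.03 over all named genes. Of the 25 E2 enzymes 2 rose and 0 fell with a median change of 0.27, and of the 26 deubiquitinating enzymes 7 rose and 1 fell with a median of 0.24; the difference between the classes was not tested. With quantile normalization the backgrounds became 8.56% higher and 7.64% lower, and 5 enzymes rose while 1 fell. In the second table that the authors deposited, quantile normalized here before the fit, 4 rose and 2 fell, against 6.21% and 5.59% of named genes. In bulk tissue a lower share of cells that express a gene and less of its RNA per cell cannot be told apart.

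The ages did not overlap for 24 of the 51 enzymes. For 18 of them (35.3%, against 23.8% of named genes) all 3 arrays of 24 months lay above all 3 arrays of 1 month. For the other 6 (11.8%, against 18.1%) they lay below. The pools of 1 month were the more variable: the SD between pools on the log2 scale had a median of 0.11 at 24 months and 0.26 at 1 month, and it was larger at 1 month for 45 of the 51 (88.2%). Over all named genes the medians were 0.11 and 0.27, and 83.5% varied more at 1 month. A large spread in the calves' pools was therefore shared by the arrays at large.

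**Figure D1:**
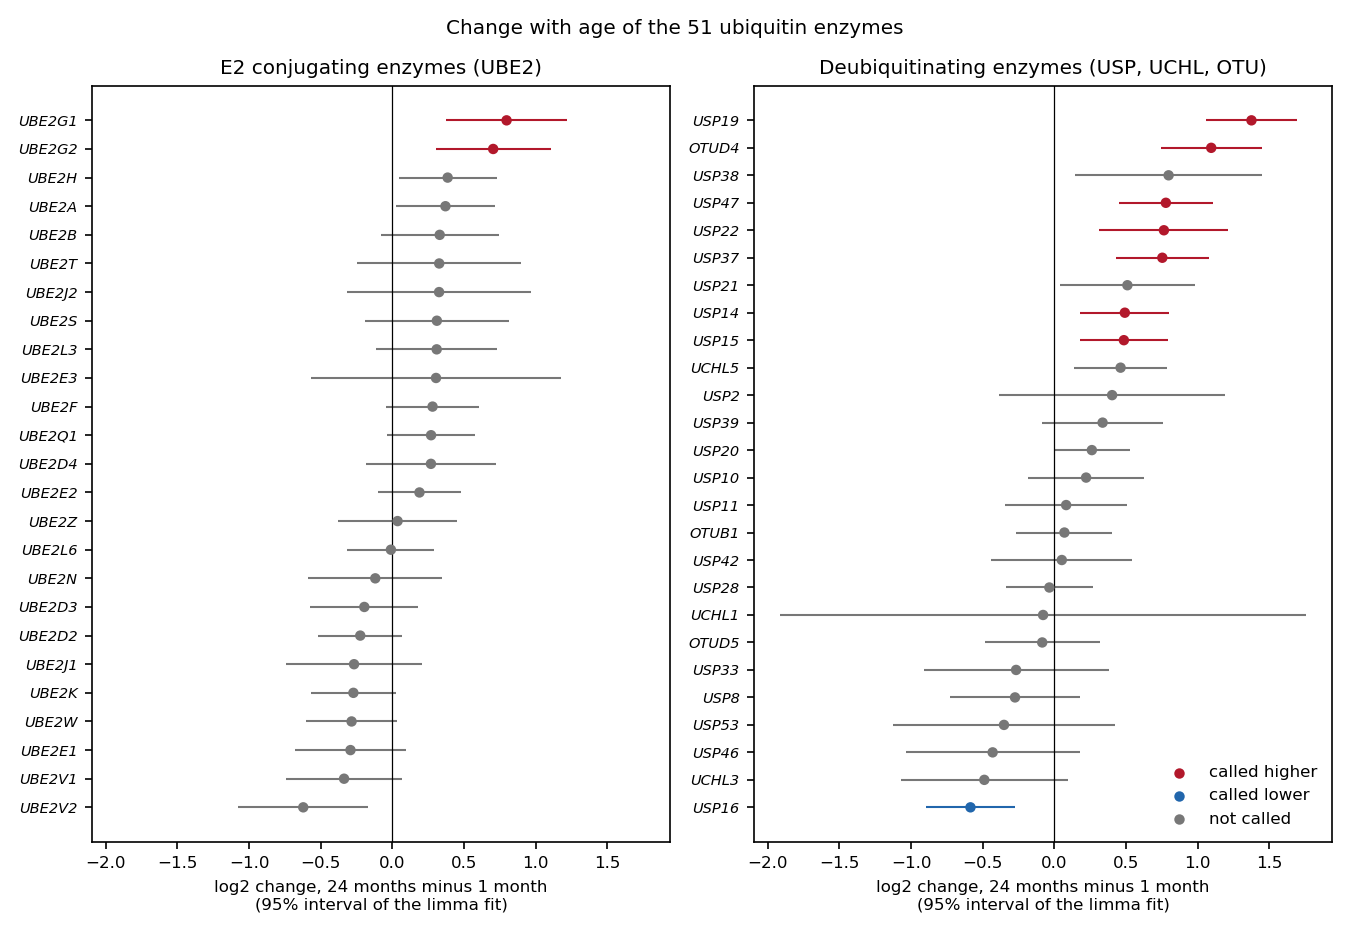
Log2 change (24 months minus 1 month, horizontal axis) of the 25 E2 enzymes (left) and the 26 deubiquitinating enzymes (right), 1 row per gene, with the 95% interval of the limma fit as a bar. Red marks the 9 genes that rose, blue the 1 that fell (USP16), and grey those that did not pass; the widest interval, from -1.91 to 1.75, is that of UCHL1.

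The ages also differed in array quality and in markers of other cells. The muscle label was borne out by all 8 measured fibre markers, such as ACTA1, CKM and MB, which were called present on all 6 arrays. Their summed intensity was 68831 to 70478 at 24 months and 50021 to 51619 at 1 month. The list was split: MB, MYH7, TNNT1 and TNNT3 were called higher, with changes of 0.48 to 1.13. ACTA1 (-0.01), CKM (0.17), MYH1 (0.26) and DES (0.58) were not called. The 3′ over 5′ ratio of the actin control probe sets, a measure of RNA integrity that is high in broken RNA, was 0.22 to 0.26 at 24 months and 0.46 to 0.85 at 1 month on the log2 scale, without overlap. Present calls covered 54.8% to 56.4% of probe sets at 24 months and 48.9% to 52.5% at 1 month. The summed intensity of 8 blood and leukocyte markers was 552 to 627 at 24 months and 842 to 3506 at 1 month. In replicates 1 and 2 of 1 month most of it was HBB (2403 and 2405). HBB had 132 in replicate 3 and 29.0 to 30.9 at 24 months. HBB and S100A8 were called lower, while PTPRC, CD3E and HBA gave -0.05 to -0.07 and CD14 gave 0.39. ALAS2 and S100A9 had no present call. The summed intensity of 5 endothelial markers was 552 to 578 at 24 months and 756 to 1033 at 1 month. PECAM1 (-0.70) and TEK (-0.80) were called lower, while CDH5 gave -0.30, overlapped between the ages and was not called. VWF, which pointed the other way (0.36), and KDR (-0.10) had no present call. With the actin ratio as a covariate 2 of the 51 enzymes were called, USP19 and UBE2E3, both higher, against 5.01% of named genes called higher and 3.35% called lower. The part of the cell markers in the changes of the enzymes was not tested.

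USP19 had the largest change among the 51. It is a ubiquitin-specific protease with a form anchored in the membrane of the endoplasmic reticulum, and in rodents it is raised in several kinds of muscle wasting. Its intensities were 484, 469.9 and 431 on the arrays of 24 months, against 157, 157 and 193 on those of 1 month. The lowest value of the older bulls was thus above the highest of the calves by more than the spread within either age. USP19 rose by 1.38 ± 0.13 (limma SE, adjusted p = 0.00376, n = 3 pools per age), or 2.59-fold. The rise kept its call whichever array was left out, with adjusted p from 0.00179 to 0.0307. It was 1.07 ± 0.24 with the actin ratio as a covariate (limma adjusted p = 0.0489) and 0.85 in the second deposited table (limma adjusted p = 0.0214).

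OTUD4, an OTU-domain protease known from human cells as a factor in the repair of alkylated DNA, had the second largest change. It gave 1186, 1073 and 966 at 24 months, against 536, 424 and 526 at 1 month. All 3 older pools were above all 3 younger ones. The rise was 1.09 ± 0.15 (limma adjusted p = 0.00658), or 2.14-fold, and it was called in all 6 fits with 1 array left out. A second, dimmer OTUD4 probe set rose by 0.58 ± 0.13 (limma adjusted p = 0.0248), with 429, 403 and 423 at 24 months, against 266, 250.0 and 309 at 1 month. In the second deposited table the brightest probe set gave 0.37 and did not pass (limma adjusted p = 0.332). The other OTU genes overlapped between the ages. OTUB1, which restrains the E2 enzyme UBE2N by binding it, had a mean of 229 ± 12.6 at 24 months and 218 ± 31.6 at 1 month (SD, n = 3), and its change of 0.07 had a 95% interval of -0.27 to 0.41. OTUD5 gave -0.08 ± 0.17.

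**Figure D2:**
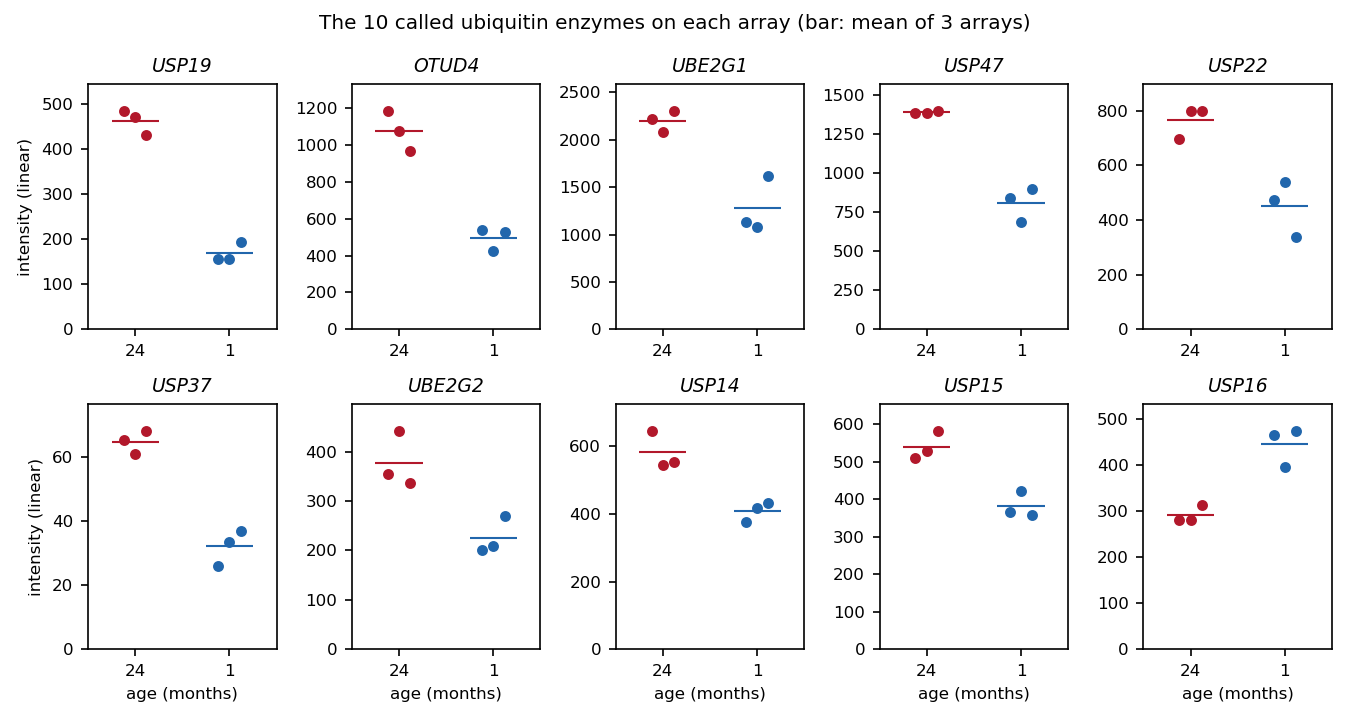
Intensity (linear, vertical axis from 0) of the 10 enzymes that rose or fell, on each array of 24 months (left, red) and of 1 month (right, blue), with the mean of the 3 arrays as a bar. In none of the 10 do the ages overlap; USP47 is almost constant at 24 months (1385 to 1399), while UBE2G1 at 1 month has 1 high pool of 3 (1623, against 1136 and 1083).

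Both deubiquitinating enzymes that bind the proteasome, USP14 and UCHL5, were higher in all pools of the older bulls, and USP14 passed the test. USP14 trims ubiquitin chains at the entrance of the proteasome. Its intensities were 647, 546 and 555 at 24 months, against 377, 418 and 432 at 1 month. The ages did not overlap, and the rise was 0.49 ± 0.13 (limma adjusted p = 0.0425). A dimmer USP14 probe set gave 0.73 ± 0.24 and did not pass (0.0758), nor did the brightest in the second deposited table (0.54, 0.0794). UCHL5, which docks on the proteasome receptor ADRM1, had 1399, 1515 and 1796 at 24 months, against 1144, 1171 and 1074 at 1 month. Its change of 0.46 ± 0.14 missed the threshold (limma adjusted p = 0.0590), and it passed with an offset of 50 (0.0427) and with all dim probe sets kept in the fit (0.0463). The call of USP14 was kept in 1 of 6 fits with 1 array left out, that without replicate 3 of 1 month.

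Among deubiquitinating enzymes of chromatin and DNA repair the changes went both ways. USP22, the catalytic part of the histone deubiquitinase module of the SAGA coactivator, had 695, 799 and 799.8 at 24 months, against 474, 540 and 338 at 1 month. USP47, which in human cells stabilises DNA polymerase beta, had 1385, 1386 and 1399, against 840.1, 689 and 897. For both genes the lowest older pool lay above the highest pool of the calves. USP22 rose by 0.76 ± 0.19 (limma adjusted p = 0.0347) and USP47 by 0.78 ± 0.14 (0.0135). Both were also called in the second deposited table, at 0.95 (limma adjusted p = 0.0430) and 0.81 (0.0252). USP16, which removes ubiquitin from a histone around cell division, went the other way. It had 280.5, 279 and 312 at 24 months, against 464, 395 and 474 at 1 month, again without overlap. It fell by 0.59 on the log2 scale (SE 0.13, limma adjusted p = 0.0256) and was called lower in the second deposited table too (-0.66, limma adjusted p = 0.0383).

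The remaining members of that class did not pass. USP21, a histone deubiquitinase, gave 0.51 ± 0.20 (limma adjusted p = 0.116) with all pools of 24 months above those of 1 month. USP46 gave -0.43 ± 0.26, and its 1-month pools ranged from 70.4 to 155. USP28, which acts in the DNA damage response, overlapped between the ages on its brightest probe set, at 532 ± 29.7 in the older bulls and 546 ± 50.4 in the calves (SD, n = 3), with a 95% interval of -0.34 to 0.27 for the change. A dimmer USP28 probe set rose, by 0.82 ± 0.18 (limma adjusted p = 0.0244), with 84.3, 136 and 104 at 24 months, against 46.9, 59.9 and 53.1 at 1 month. The 2 USP28 probe sets therefore disagreed, and which of them follows the gene was not tested.

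Of the other USP genes USP15 and USP37 rose besides USP19. USP15, a regulator of TGF-beta receptor signalling, had 508, 528 and 583 at 24 months, against 366, 421 and 357 at 1 month, and it rose by 0.49 ± 0.13 (limma adjusted p = 0.0426). Its dimmer probe set pointed the other way, at -0.44 ± 0.22 (0.195), and the brightest gave 0.09 in the second deposited table (0.792). USP37, which in human cells protects cyclin A at the start of DNA replication, was called present on all 3 arrays of 24 months and on none of 1 month. Its intensities were 65.1, 60.8 and 68.2 at 24 months, against 25.8, 33.4 and 36.9 at 1 month. With only a bound at 1 month, USP37 was at least 1.69-fold higher at 24 months (limma adjusted p = 0.0141), the error of the fit aside. In the second deposited table it gave 0.88 and did not pass (0.0667). A dimmer USP37 probe set was called present on 1 array and was left out of the fit. Its ages overlapped, with 27.4, 35.8 and 36.7 at 24 months, against 23.5, 31.6 and 29.9 at 1 month. USP37 and UBE2J2 were the 2 of the 51 that entered through the calls of 1 age, so the direction of USP37 was partly given by that filter.

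USP38 stood out by the spread of the calves' pools. It had 693, 670.4 and 726 at 24 months, against 304, 315 and 634 at 1 month. The pool with the high value was replicate 3 of 1 month. Its change of 0.80 ± 0.28 did not pass (limma adjusted p = 0.0869), and it passed without that pool (0.00276). The dimmer USP38 probe set had the same order of the 1-month pools, but not of the 24-month pools. Its values were 204, 259 and 226 at 24 months, against 37.1, 56.9 and 167 at 1 month. It gave 1.46 ± 0.43 (0.0545).

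USP2, a protease with a daily rhythm in many tissues, was called present on 2 of 3 arrays at 24 months and 1 of 3 at 1 month. It had 104, 78.8 and 85.6 at 24 months, against 30.8, 72.2 and 105 at 1 month, and its change of 0.40 ± 0.33 lay within the spread (limma adjusted p = 0.426). USP10, USP11, USP20 and USP42 gave changes of 0.05 to 0.26, and USP8, an endosomal protease, and USP33 gave -0.27 each. Of these 6 genes USP20 had pools that did not overlap, at 70.6 to 71.5 against 53.8 to 59.4. The splicing factor USP39 gave 0.34 ± 0.18, and USP53 gave -0.35 ± 0.33.

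The UCHL genes showed how far 1 pool can carry a mean. UCHL1, a small ubiquitin hydrolase best known from neurons, had 163, 139 and 209 at 24 months, against 763, 76.5 and 86.2 at 1 month. Replicate 1 of 1 month was above every older pool, and replicates 2 and 3 were below every older pool. Over all 6 arrays the change was -0.08 ± 0.77. Without replicate 1 of 1 month it was 0.92 ± 0.19 and called higher (limma adjusted p = 0.0234), so the sign and the call rest on that pool. Markers of other cells stood out on the same array. COL1A1, a fibroblast collagen, had 384, 429 and 349 at 24 months without a present call, against 4604, 498 and 463 at 1 month. The summed intensity of the 6 fibroblast markers was 5593 to 7314 at 24 months, against 23751, 6717 and 8137 at 1 month. COL3A1 stood out little, with 2374, 2148 and 1601 at 24 months, against 2699, 1914 and 2631 at 1 month. The summed intensity of the 5 measured adipocyte markers was 907 to 1285 at 24 months, against 2641, 249.97 and 661 at 1 month. Of the adipocyte list ADIPOQ, CFD and LEP did not stand out on replicate 1 of 1 month. ADIPOQ had 133, 213 and 106 at 24 months, against 174, 20.7 and 50.4 at 1 month without a present call. CFD had 167, 240 and 180 at 24 months, against 141, 65.1 and 89.9 at 1 month, and LEP had no present call. Of 5 measured nerve and Schwann cell markers NEFL, NEFM and ENO2 had no present call on any array, and the sum of the 5, mostly S100B, was 979 to 1078 at 24 months, against 573, 947 and 1131 at 1 month. The part of these cells in the UCHL1 values was not tested.

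**Figure D3:**
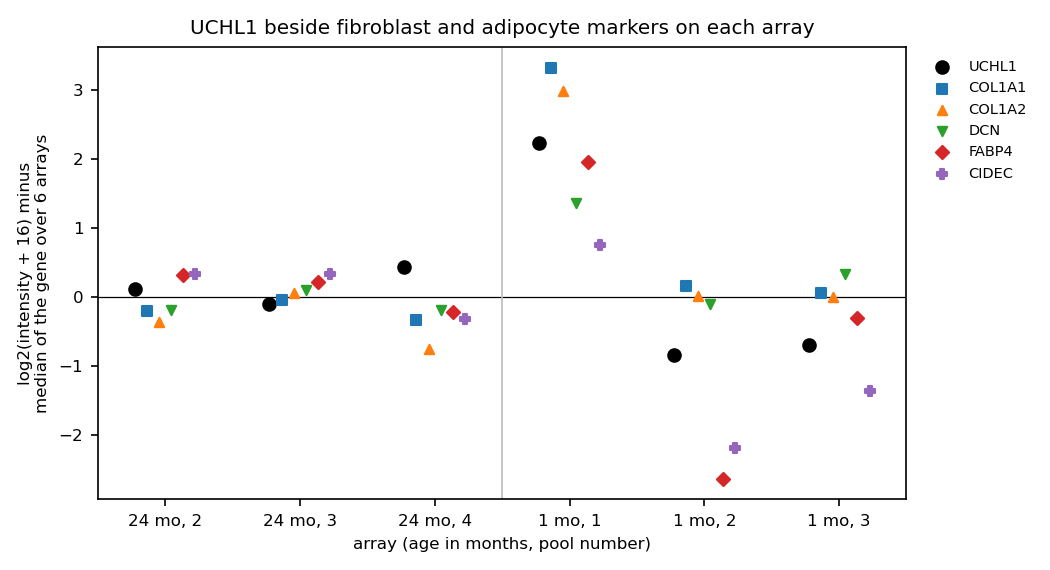
UCHL1 (black circles) and 5 markers of fibroblasts (COL1A1, COL1A2, DCN) and adipocytes (FABP4, CIDEC) on each array, as log2(intensity + 16) minus the gene's own median over the 6 arrays (vertical axis), with the pools of 24 months left of those of 1 month. On replicate 1 of 1 month all 6 genes lie above their medians, and on replicate 2 of 1 month UCHL1, DCN, FABP4 and CIDEC lie below theirs. The adipocyte markers CFD and LEP, not drawn, lie below their medians on replicate 1 of 1 month. ADIPOQ and COL3A1, not drawn either, lie above theirs on that array. ADIPOQ is higher still on replicate 3 of 24 months, and COL3A1 is nearly as high on replicate 3 of 1 month.

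UCHL3, which can also release the ubiquitin-like protein NEDD8, had 767, 517 and 711 at 24 months, against 665, 1135 and 1055 at 1 month. Its change of -0.49 ± 0.25 did not pass (limma adjusted p = 0.201), and it was called lower (0.0477) without replicate 1 of 1 month, the pool in which it was lowest among the calves.

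Among the E2 enzymes the 2 that rose were close relatives. UBE2G1 and UBE2G2 build chains linked through lysine 48, and UBE2G2 serves the breakdown of faulty proteins of the endoplasmic reticulum. UBE2G1 had 2218, 2080 and 2306 at 24 months, against 1136, 1083 and 1623 at 1 month. It rose by 0.80 ± 0.18 (limma adjusted p = 0.0260), or 1.74-fold, and by 0.88 in the second deposited table (0.0296). UBE2G2 had 354, 443 and 336, against 200.2, 208 and 269, and it rose by 0.70 ± 0.17 (0.0323). In the second deposited table UBE2G2 gave 0.62 and did not pass (limma adjusted p = 0.124). A dimmer UBE2G2 probe set gave 0.43 ± 0.16 and did not pass (0.100). With the actin ratio as a covariate the values were 0.24 ± 0.28 for UBE2G1 and 0.22 ± 0.28 for UBE2G2, and neither was called.

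The other E2 enzymes of this class did not pass. UBE2K, which also builds chains of lysine 48, had 339, 392 and 399 at 24 months, against 447, 486 and 439.9 at 1 month. All older pools were below those of the calves, and the change of -0.27 ± 0.13 did not pass (limma adjusted p = 0.172). In the second deposited table UBE2K was called lower (-0.73, 0.0355). UBE2J1 and UBE2J2 sit in the membrane of the endoplasmic reticulum. UBE2J1 gave -0.27 ± 0.20 and UBE2J2 gave 0.33 ± 0.27, within their spread. UBE2J2 had 475, 520.0 and 428 at 24 months with a present call on every array, against 305, 288 and 591 at 1 month with none. Its detection p on the arrays of 1 month, as the authors deposited them, were 0.0676, 0.0562 and 0.0562.

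The 3 E2 proteins of chains linked through lysine 63 all had negative values, and 0 passed in the limma fit (1 of 3 at an unadjusted p under 0.05). UBE2N is the catalytic partner, and UBE2V1 and UBE2V2 are partners that lack the catalytic cysteine. UBE2V2 had 199.7, 219 and 289 at 24 months, against 310.2, 445 and 359.6 at 1 month. The ages did not overlap, and the change of -0.62 ± 0.19 missed the threshold (limma adjusted p = 0.0647). The dimmer UBE2V2 probe set passed, with 122, 123 and 123 at 24 months, against 152, 199 and 186 at 1 month, a change of -0.49 ± 0.14 (0.0489). UBE2V1 had 958, 856 and 780.1, against 996, 1350.3 and 969.7, and gave -0.34 ± 0.17 (0.203). UBE2N had 401, 483 and 524, against 468, 660.0 and 425, which overlapped, and gave -0.12 ± 0.20.

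The E2 enzymes of DNA repair and chromatin were all on the positive side without passing on their brightest probe sets. UBE2B, one of a pair of enzymes that mark histones and the replication clamp, was among the first E2 enzymes studied in rodent muscle wasting. It had 2631, 2396 and 2605 at 24 months, against 1733, 1851 and 2563 at 1 month. Replicate 3 of 1 month was within the range of the older pools, and the change was 0.33 ± 0.17 (limma adjusted p = 0.219), or 0.50 and called without that pool (0.0289). The dimmer UBE2B probe set rose by 1.40 ± 0.21 (0.0081), with 81.9, 50.6 and 77.0 at 24 months, against 11.0, 15.7 and 23.0 at 1 month. UBE2A, the other of the pair, had 568, 605 and 573, against 459.99, 513 and 376, and gave 0.37 ± 0.15 (0.122) without overlap. UBE2T, an enzyme of the Fanconi anaemia pathway, gave 0.33 ± 0.24.

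The 8 E2 enzymes that start chains or work with many ligases were split, 4 on each side of 0, with changes from -0.29 to 0.31 and 0 calls in the limma fit, also at an unadjusted p under 0.05. UBE2D2, a general partner of RING ligases, had 729.8, 755 and 708 at 24 months, against 907, 776 and 891 at 1 month, again without overlap, and gave -0.22 ± 0.12 (limma adjusted p = 0.236). UBE2D3 gave -0.20 ± 0.16, UBE2E1 -0.29 ± 0.16 and UBE2W, which modifies the start of proteins, -0.28 ± 0.13. UBE2D4, UBE2E2 and UBE2L3 gave 0.27, 0.19 and 0.31. UBE2E3 had 1399, 1266 and 1198 at 24 months, against 1650.2, 1219 and 552 at 1 month, so the calves' pools reached beyond the older ones on both sides. Its change of 0.30 ± 0.37 became 1.99 ± 0.27 and passed (0.0189) with the actin ratio as a covariate; the UBE2E3 value was highest in the 1-month pool with the highest ratio, replicate 1, and lowest in the one with the lowest, replicate 3.

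The E2 enzymes of ubiquitin-like proteins and the remaining E2 enzymes did not pass either. UBE2L6, the E2 of the interferon-induced modifier ISG15, had 80.6 ± 8.84 at 24 months and 81.2 ± 5.13 at 1 month (SD, n = 3), with a 95% interval of -0.31 to 0.29 for the change. UBE2F, which carries NEDD8, gave 0.28 ± 0.14, and UBE2Z, which carries the ubiquitin-like protein FAT10, gave 0.04 ± 0.17. UBE2S, which extends the chains of the anaphase-promoting complex, had 231, 234 and 221 at 24 months, against 135, 174 and 251 at 1 month. It gave 0.31 ± 0.21 (limma adjusted p = 0.333). Of 6 measured markers of dividing cells, PCNA fell (-0.45, limma adjusted p = 0.0357), with 555, 508 and 530 at 24 months, against 721, 740 and 733 at 1 month. CDK1 was present on 5 arrays and did not pass, AURKA was present on 2, and CCNB1, CCNB2 and BIRC5 had no present call. UBE2H, the E2 of the CTLH ligase, had 425, 438 and 399 at 24 months, against 351, 342 and 268 at 1 month, and gave 0.39 ± 0.14 (0.105). Its dimmer probe set was called present at 24 months alone and was at least 1.69-fold higher there (0.00887), the error of the fit aside. That probe set had 61.0, 63.2 and 57.8 at 24 months, against 26.6, 31.0 and 30.6 at 1 month. It was tested through the calls of 24 months alone, so its direction was partly given by that filter. UBE2Q1 gave 0.27 ± 0.13.

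Probe sets of 1 gene did not always tell the same story. Of the 51 enzymes 13 had 2 tested probe sets, and for 9 of them both pointed the same way. Both probe sets passed for 1 gene (OTUD4), the brighter alone for 3 (UBE2G2, USP14 and USP15), the dimmer alone for 4 (UBE2B, UBE2H, UBE2V2 and USP28), and neither for 5. The 4 genes with opposite directions were USP15, USP28, USP33 and USP8. No gene had calls in opposite directions.

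**Figure D4:**
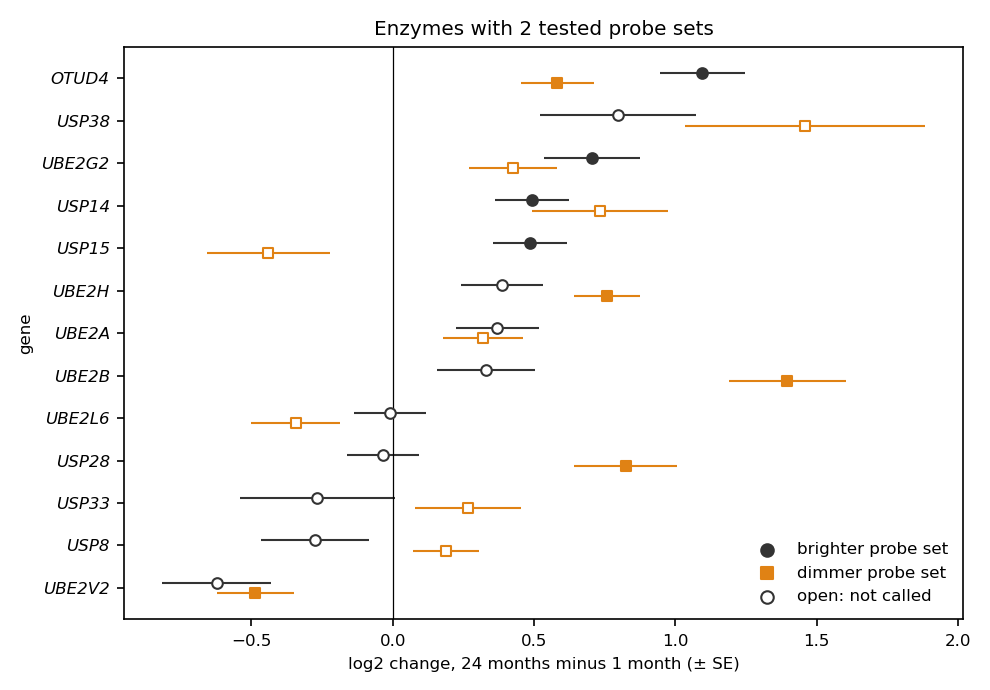
Log2 change (24 months minus 1 month, horizontal axis, bars ± SE) of the 13 enzymes with 2 tested probe sets, the brighter as a circle and the dimmer as a square. Filled symbols passed the limma test; the dimmer probe sets of UBE2B (1.40) and USP28 (0.82) lie far from the brighter ones (0.33 and -0.03).

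The 11 genes left out by the rule had no probe set with present calls on over 2 arrays. OTUB2, OTULIN, UBE2C, USP3, USP5, USP30 and USP50 had none. USP5, which takes apart free ubiquitin chains, had 232, 276 and 286 at 24 months, against 248, 274 and 272 at 1 month, without a present call. Just outside the limit, with 2 calls, were OTULINL, USP18 (on 1 of its 4 probe sets) and USP4. USP4 had 46.7, 57.2 and 48.7 at 24 months, against 16.9, 24.3 and 36.7 at 1 month. Just inside it, with 3 calls, were UBE2J2, USP2 and USP37. USP12 had 1 call. UBE2C, which starts the chains of the anaphase-promoting complex, stayed between 24.1 and 31.0 on all arrays.

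Other genes of the pathway give the surroundings of these enzymes. Of 87 genes listed for it 55 were tested, of which 8 rose (14.5%, against 11.3% of named genes) and 1 fell (1.82%, against 5.78%; 14 and 2 at an unadjusted p under 0.05). The median change was -0.11 over 7 E1 genes, 0.20 over 5 further E2 genes, 0.19 over 14 further deubiquitinating enzymes, 0.04 over 13 ubiquitin-like modifiers, 0.37 over 2 proteases of SUMO or NEDD8 and 0.24 over 14 cofactors, beside 0.03 over all named genes. The E1 enzyme UBA1, which loads most E2 enzymes, had 545, 574 and 492 at 24 months, against 321, 327 and 349 at 1 month. It rose by 0.66 ± 0.12 (limma adjusted p = 0.0147) and was the 1 of 7 tested E1 genes that passed. CDC34, an E2 enzyme outside the UBE2 names that makes chains of lysine 48 with cullin ligases, had 1504, 1763 and 1371, against 609, 972 and 455. It rose by 1.23 ± 0.27 (0.0249), or 2.35-fold. UFC1, the E2 of the modifier UFM1, had 453, 449 and 431, against 886, 788 and 587, and it was the 1 gene that fell, by 0.72 on the log2 scale (SE 0.17, limma adjusted p = 0.0309).

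Of 14 tested cofactors of the enzymes 3 rose, against 11.3% of named genes, and 0 fell by limma. At an unadjusted p under 0.05 CAND1, an exchange factor of cullin ligases, was lower (-0.61 ± 0.24, limma adjusted p = 0.121). At that limit DCUN1D1 (1.04 ± 0.37), RAD23B (0.87 ± 0.31) and ADRM1 were higher, also without passing. VCP, the ATPase that pulls ubiquitinated proteins out of complexes and membranes, had 1159, 1304 and 1074 at 24 months, against 638, 539 and 665 at 1 month, a rise of 0.92 ± 0.14 (limma adjusted p = 0.00881). UBQLN2, a shuttle to the proteasome, rose by 0.99 ± 0.16 (0.00982), and PSMD4, a ubiquitin receptor of the proteasome, by 0.66 ± 0.18 (0.0434). None of these 3 had overlapping ages. ADRM1, the receptor that holds UCHL5, gave 0.73 ± 0.27 and did not pass (0.0970). ENY2, a partner of USP22, gave -0.03 ± 0.16.

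Of 14 tested deubiquitinating enzymes outside the naming rule, ZRANB1 rose, by 1.20 ± 0.26 (limma adjusted p = 0.0228), and 0 fell. It is an OTU-type protease with a preference for unusual chains, and it had 484, 488 and 478 at 24 months, against 143, 182 and 312 at 1 month. PSMD14, the protease of the proteasome lid, gave 0.00 ± 0.19. Of 13 tested ubiquitin-like modifiers SUMO3 rose, by 1.13 ± 0.16 (0.00678), with 816, 868 and 894 at 24 months, against 471, 339 and 352 at 1 month. SENP2, a protease that removes SUMO, rose by 0.86 ± 0.15 (0.0119). SUMO3 was the 1 of the 9 called pathway genes that passed in all 6 fits with 1 array left out, and the 1 that passed with the actin ratio as a covariate (0.0328).

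Among fits with 1 array left out, those without an array of 24 months called the fewest enzymes. Without replicate 2, 3 or 4 of that age 2 of the 51 enzymes were called each time, USP19 and OTUD4, both higher, against 3.11%, 2.57% and 2.54% of named genes called higher and 0.981%, 0.903% and 0.778% called lower. Without replicate 1, 2 or 3 of 1 month 7, 7 and 12 rose and 3, 1 and 1 fell, against 12.3%, 9.34% and 15.1% of named genes called higher and 6.62%, 6.97% and 9.03% called lower. The direction of all 10 called enzymes was the same in each of these 6 fits.

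**Figure D5:**
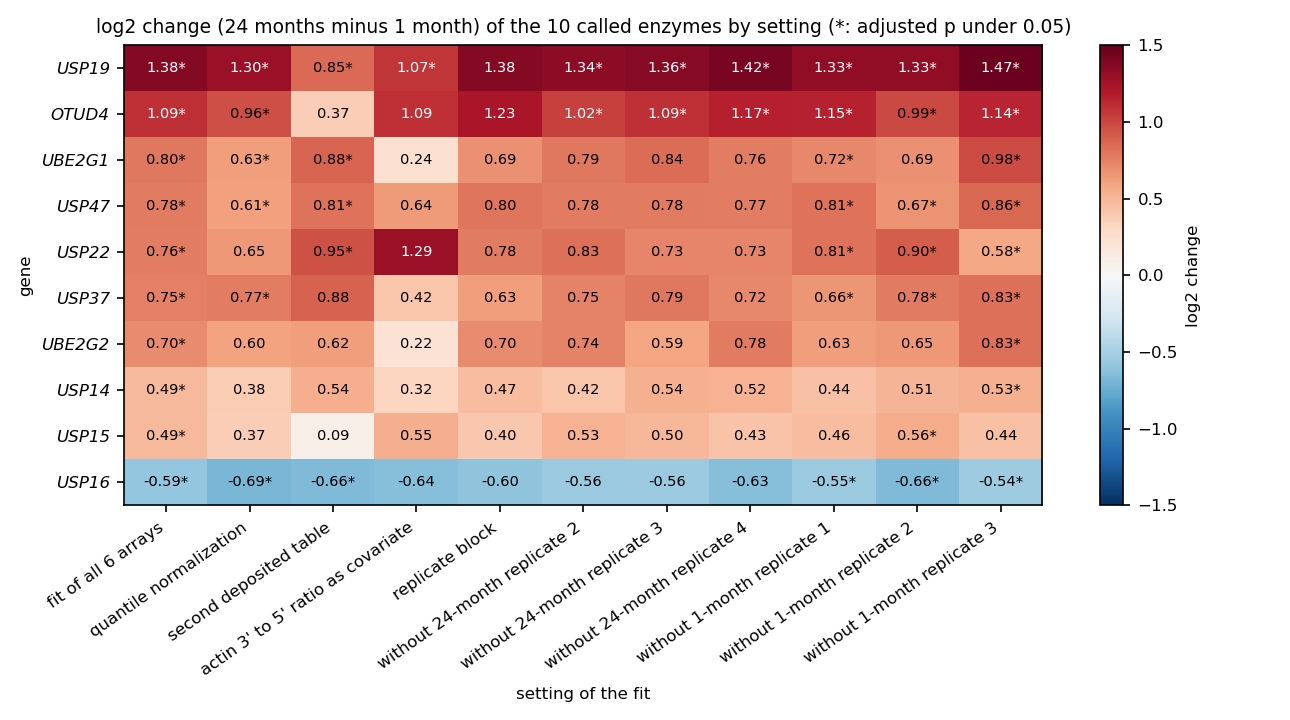
Log2 change (24 months minus 1 month, colour and number) of the 10 called enzymes (rows) under 11 settings of the fit (columns), with a star where the limma adjusted p was under 0.05. No value changes sign; USP19 carries a star in every column but that of the replicate block (1.38), and the USP15 value is smallest, at 0.09, in the second deposited table.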

How the data were processed

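Expression was measured in 6 pools of muscle RNA, 3 per age, on 1 array each. The deposited table, named for the program dChip, holds linear intensity values that the authors normalized across arrays before they deposited them. The version, background correction and normalization behind it were not given in the sources used here. It also holds detection calls and, for the 1-month arrays, a detection p-value deposited by the authors. Another table, also of linear intensity and deposited by the authors, covers these arrays, with its scaling unknown.

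Gene symbols came from GEO's annotation of the platform. Of 62 genes 61 matched the RefSeq table of ARS-UCD2.0 by identifier with the same symbol, and no sequences were printed. Log2(intensity + 16) of the 13204 non-control probe sets present on at least 3 arrays was fitted with limma 3.58.1 (lmFit, eBayes) in R 4.3.3 without covariates, two-sided, Benjamini-Hochberg adjusted. The fit was tested on simulated data. Precision is limited by the number of arrays, for which there is no read depth. A gene with no present call at 1 age has a bound there: the brighter mean against the mean, per dim array, of its own value or, if higher, the lowest intensity with a present call.

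The genes, the pathway lists and the alternatives were chosen with earlier results of these data known. Genes named were those called, a set picked for their known roles (such as UBE2B, USP14, UCHL1 and OTUB1), those whose probe sets disagreed in call, and the called pathway genes. The other members were added so that each is accounted for, some with values chosen after they were seen. The 4 ubiquitin genes of the pathway list were not analysed here.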

Additional observations from a re-analysis of the deposited data

How the results depend on the processing

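Median centring, another offset, no filter on dim probe sets, present calls on all 6 arrays, trend and robust eBayes, and leaving out probe sets of a cross-hybridising type kept the counts of called enzymes within 1.5 times. Without the filter 1269 of all probe sets fell, in place of 659, out of more probe sets tested. With quantile normalization 5 enzymes rose, the median change over all 51 was 0.14, and 2 changed sign, OTUB1 (-0.033) and UBE2Z (-0.017). In the second deposited table the numbers were 4 enzymes higher and 2 lower with a median of 0.089, 5 pathway genes rose, 1006 of all probe sets rose, and 6 enzymes changed sign, OTUB1 (-0.11), UBE2S (-0.078), UBE2D4, UBE2F, USP11 and USP42. With the mean of all tested probe sets per gene 2 enzymes fell. With the actin ratio as a covariate 2 enzymes rose and 0 fell by limma (9 and 3 at an unadjusted p under 0.05), 1 pathway gene rose and 0 fell (12 and 4), and 655 of all probe sets rose and 341 fell. Then 19 of the 51 enzymes changed sign without a call. Among them were OTUB1 (-0.055), UBE2B (-0.27), UBE2J1 (0.46), UBE2N (0.069), UBE2S (-0.57), UCHL1 (2.87), USP2 (-0.99) and USP38 (-0.33). None of the 10 called enzymes changed sign in the refits of all probe sets, the mean per gene aside, or with 1 array left out. The cause of these differences was not tested.

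The replicate numbers 2 and 3 occur at both ages, and no label pairs pools across ages. The deviations of same-numbered pools had correlations of -0.18 and 0.04 over probe sets. Between pools with different numbers the correlations were -0.09 to 0.17. Whether same-numbered pools share more than a number was not tested. With a replicate block 0 enzymes rose and 0 fell by limma (8 and 3 at an unadjusted p under 0.05), against 0.638% and 0.0934% of named genes, 0 pathway genes rose and 0 fell (9 and 1), and 114 of all probe sets rose and 15 fell, with 1 residual degree of freedom per probe set. Replicate 1 occurs only at 1 month and replicate 4 only at 24 months. Under the block the change with age therefore rested on the pools of replicates 2 and 3. OTUD5 (0.084), UBE2L6 (0.010) and UCHL1 (0.78) changed sign under the replicate block.

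With 1 array left out, 2 to 12 enzymes rose and 0 to 3 fell, with a median change of 0.17 to 0.26. Of the pathway genes 1 to 12 rose and 0 to 1 fell, and of all probe sets 432 to 2451 rose and 94 to 1025 fell. Signs changed for 11 enzymes in at least 1 of these fits, none of them called over all arrays. They were OTUD5, UBE2E3, UBE2Z, USP11, USP33 and USP42, and OTUB1 (-0.017 to 0.17, negative without replicate 1 of 1 month), UBE2L6 (-0.078 to 0.053, positive without replicate 2 (3.7e-05) or 3 (0.022) of 1 month or 4 of 24 months), UBE2N (-0.25 to 0.064, positive without replicate 2 of 1 month), UCHL1 (-0.61 to 0.92, positive without replicate 3 of 24 months (0.046) or 1 of 1 month) and USP28 (-0.098 to 0.031, positive without replicate 3 of 1 month or 2 of 24 months (0.011)). Of these, UCHL1 alone was called, without replicate 1 of 1 month. The offset lowers the log2 change of a dim probe set relative to its intensity ratio.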
